A study of Mus musculus with 8 samples.

Results

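Adipose progenitors are the stromal cells of fat from which new adipocytes form, and the genes described here are markers carried on their surface or secreted by them. The members are a fixed list of 10 genes, namely Pi16, Dpp4, Cd55 and Clec3b as interstitial markers, F3 and Pdgfrb as committed markers, and Fap, Thy1, Pdgfra and Ly6a. A probe set, the group of probes that reports one transcript, counted for a member where the array's annotation pairs it with that gene symbol alone, and the probe set with the highest mean over the 8 arrays stood for the gene. This gave values for 9 of the 10 members, among 18193 genes in all, and Ly6a was not analysed here because no probe set is paired with it in the annotation used. The members were given by name, with no measured value in the rule, but earlier results of these data were known when the list was chosen.

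Whole inguinal white adipose tissue, the subcutaneous fat of the groin, was taken from 4 male mice deficient in lysophosphatidic acid receptor 4 (Lpar4 -/Y, here KO) and 4 wild-type male littermates (WT). All were on a C57BL/6 background, aged 12 weeks and fed standard chow (MF), with no drug or diet treatment named. The labels name no Cre or cell-type promoter. Each mouse gave its own array, and the values are log2 signals, so a difference of 1 is a doubling.

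In mouse subcutaneous fat, progenitors marked by DPP4, PI16 and CD55 lie mainly in the fibrous interstitium around the fat lobules, whereas cells closer to adipocyte formation lie within the lobules. Cells marked by tissue factor, the product of F3, form a further stromal population that has been described as restraining adipogenesis. PDGFRA is carried by nearly all of these stromal cells, and PDGFRB by part of them and by pericytes. LPAR4 is a G protein-coupled receptor for lysophosphatidic acid, a lipid that fat tissue itself makes, and the comparison asks how these markers stand when the receptor is missing.

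Array medians were near equal, from 6.73 to 6.74. Lpar4 was reported by 3 probe sets. Signal of 1452424_at was 5.81 ± 0.07 among KO arrays against 6.93 ± 0.10 among WT arrays (SD, n = 4; limma adjusted p = 0.0104 over all probe sets), whereas for 1439665_at and 1434186_at the KO mean exceeded the WT mean by 0.53 and 0.71 without passing; which of them lie in the deleted part is not known here. For 18S ribosomal RNA, measured by 3 controls on the array, all KO values exceeded all WT values (by 0.44, 0.22 and 0.28 on average). Skeletal muscle genes parted the arrays by replicate number, with list means of 8.84 to 9.62 for numbers 1 and 2 but 6.44 to 7.04 for numbers 3 and 4. The array WT 3 was the lowest of the 8 in 6 of the 9 members (Pi16, Dpp4, Clec3b, Pdgfra, Thy1 and Fap), so the differences of these 6, of F3 and Pdgfrb and of the marker sets are also given without it. The part of these features in the results below was not tested.

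Of the 9 members, 8 had a higher mean in KO and 1, Pdgfrb, a lower one, and the median difference was 0.30, against 0.00 over all genes. Clec3b and Cd55 rose in KO and 0 members fell, by limma at a threshold of 0.05 after Benjamini-Hochberg adjustment across the 18193 genes. Over all genes, 4.03% passed this test in either direction and 2.39% were called higher in KO. The KO and WT arrays did not overlap for 4 members, all higher in KO (Clec3b, Cd55, F3 and Fap); over all genes 9.20% were higher in KO without overlap. All 9 members varied between arrays (SD of at least 0.01), and among the 5173 genes that did so this share was 18.2%, or 33.2% in either direction. When only those varying genes were tested, 3 members passed (Clec3b, Cd55 and F3), with 14.9% of these genes called higher and 27.1% called in all; adding the replicate block left 2, Clec3b and Cd55, with 10.3% called higher and 19.5% in all. Taking numbers 1 and 2 against numbers 3 and 4 as a block over all genes left 1, Cd55 (adjusted p = 0.0404), with 1.63% called higher and 2.71% in all. With the replicate number as a block, 0 members and 0 of all genes passed in limma, although 3703 genes then (20.4%) then had an unadjusted p under 0.05, against 4172 (22.9%) without that block. Since the tissue was measured whole, fewer cells of a type and less RNA per cell cannot be told apart for any of these genes.

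**Figure D1:**
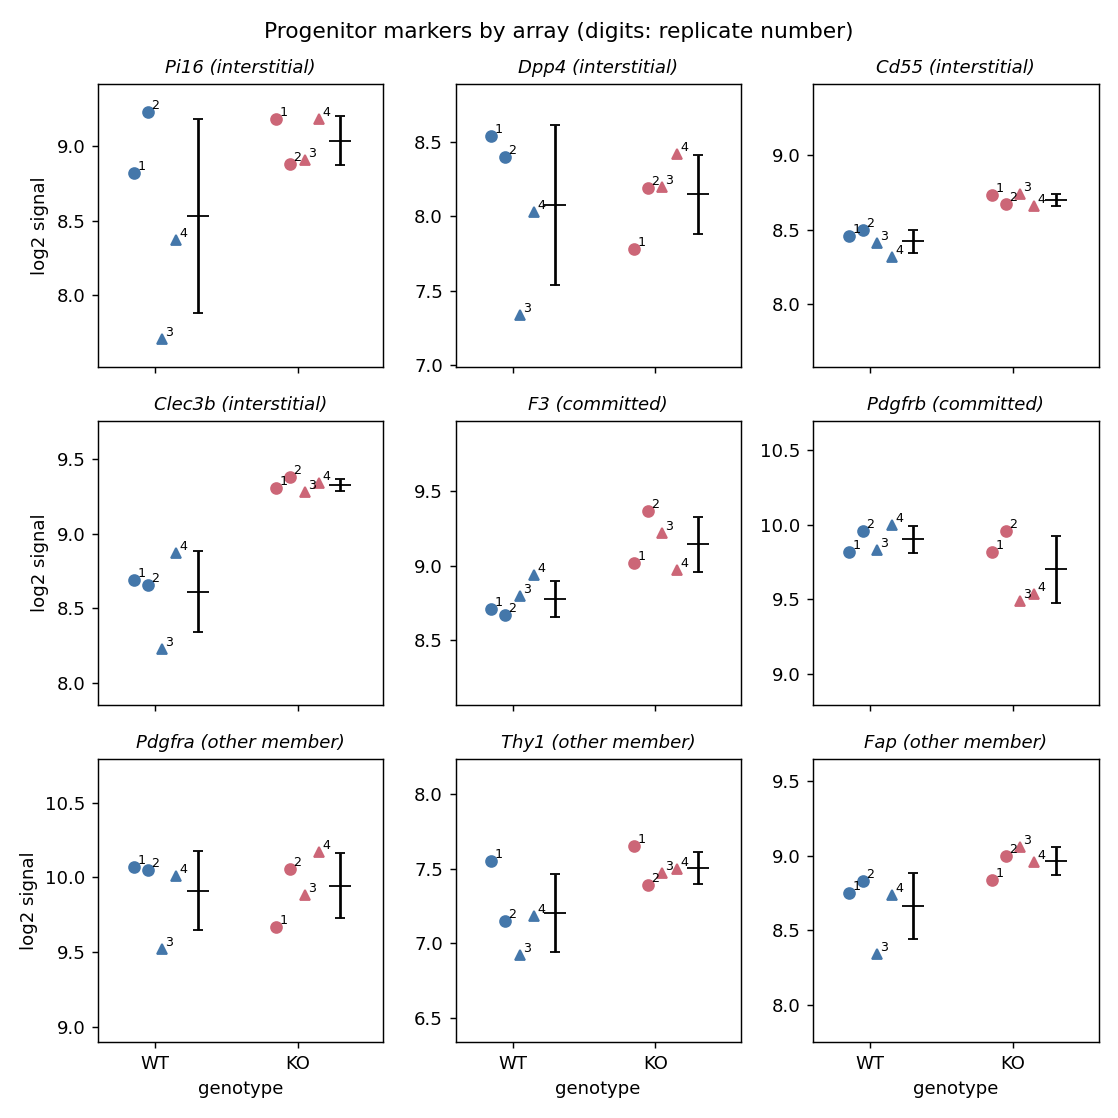
Log2 signal of the 9 measured members in each array, WT left and KO right in each panel; circles are replicate numbers 1 and 2, triangles 3 and 4, and the bar is the mean with the SD (n = 4). All panels span the same log2 range. The 4 KO arrays lie above the 4 WT arrays for Cd55, Clec3b, F3 and Fap, and WT 3 is the lowest array for Pi16, Dpp4, Clec3b, Pdgfra, Thy1 and Fap.

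Clec3b encodes tetranectin, a secreted C-type lectin that binds plasminogen, and had the largest difference of the members. Its log2 signal was 9.31, 9.38, 9.28 and 9.34 in KO 1 to 4. In WT 1 to 4 it was 8.69, 8.66, 8.23 and 8.87. The KO arrays lay close together and all above the WT arrays, which spread more widely, with WT 3 the lowest. The difference was 0.71 ± 0.13 (SE, n = 4 against 4), or 1.64-fold, and passed (limma adjusted p = 0.0437 over all genes). The exact permutation p was 0.0286 (two-sided), the smallest that 4 against 4 arrays can give. Within numbers 1 and 2 it was 0.67, and within numbers 3 and 4 it was 0.76. The call was lost with the replicate block (adjusted p = 0.130) and over all probe sets (0.0549), whereas among varying genes only its adjusted p was 0.0101, or 0.0249 with that block. Without WT 3 the difference was 0.59 and passed (adjusted p = 0.0319), and it did not pass without any one of the other 7 arrays (adjusted p from 0.0552 without WT 4 to 0.116 without KO 3).

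Cd55 encodes decay-accelerating factor, a membrane protein on a lipid anchor that protects cells from complement. In KO 1 to 4 its log2 signal was 8.73, 8.67, 8.74 and 8.66. In WT 1 to 4 it was 8.46, 8.50, 8.41 and 8.32. Both genotypes were tight and did not overlap. The difference was 0.28 ± 0.04 (SE, n = 4 against 4), or 1.22-fold, and passed (limma adjusted p = 0.0296 over all genes), with an exact permutation p of 0.0286. Within numbers 1 and 2 it was 0.22, and within numbers 3 and 4 it was 0.34. The call was lost with the replicate block (adjusted p = 0.107), whereas among varying genes only its adjusted p was 0.0117, or 0.0324 with that block. It held without WT 4 (0.25, adjusted p = 0.0404) and was lost without any one of the other 7 arrays, with adjusted p from 0.0531 without WT 2 to 0.0917 without KO 3 and differences of 0.27 to 0.31.

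The start regions of Cd55, of Dpp4 as an interstitial marker that did not pass, and of F3 as a committed marker are shown to set side by side the letters around genes that mark related cells. Each runs from 250 bases before to 50 bases after the RefSeq start on GRCm38.p6, at chr1:130462695-130462994 (minus strand), chr2:62412182-62412481 (minus strand) and chr3:121723287-121723586 (plus strand). Capitals mark matches, on either strand, to the GC box GGGCGG, the AP-1 motif TGAGTCA, the TATA box TATAAA and the TEAD motif GGAATG.
Cd55: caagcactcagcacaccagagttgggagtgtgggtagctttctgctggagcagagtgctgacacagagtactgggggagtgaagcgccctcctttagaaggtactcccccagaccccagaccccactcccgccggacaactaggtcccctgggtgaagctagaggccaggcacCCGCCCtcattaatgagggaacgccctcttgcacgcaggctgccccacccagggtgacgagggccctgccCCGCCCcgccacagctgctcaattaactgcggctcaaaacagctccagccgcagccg
Dpp4: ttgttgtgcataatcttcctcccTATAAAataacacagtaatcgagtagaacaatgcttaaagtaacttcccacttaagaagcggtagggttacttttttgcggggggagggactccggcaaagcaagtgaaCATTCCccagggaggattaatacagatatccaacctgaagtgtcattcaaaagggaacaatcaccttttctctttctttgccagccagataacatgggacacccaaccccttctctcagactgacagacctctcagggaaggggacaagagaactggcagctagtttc
F3: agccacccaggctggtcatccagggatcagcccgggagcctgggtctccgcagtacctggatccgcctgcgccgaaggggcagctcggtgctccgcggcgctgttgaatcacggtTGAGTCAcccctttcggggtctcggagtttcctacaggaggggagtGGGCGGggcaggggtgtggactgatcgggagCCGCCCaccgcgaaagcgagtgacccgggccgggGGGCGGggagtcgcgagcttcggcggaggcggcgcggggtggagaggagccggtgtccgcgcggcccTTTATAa
The Cd55 window held 2 GC boxes and no other match, and 63.3% of its bases were G or C. The Dpp4 window, at 45.3% G or C, held 1 match to the TATA letters, beginning 227 bases before the start, and 1 TEAD match. The F3 window, at 70.3% G or C, held 3 GC boxes and 1 AP-1 match before the start, and 1 match to the TATA letters on the opposite strand, which begins 43 bases after the start. Of 32851 windows of the same length, 35.7% held a GC box, 5.20% an AP-1 match, 13.6% a TATA box and 14.7% a TEAD match. These are letter matches only, and the arrays did not measure binding. The windows of Pi16 and Pdgfra, not shown, held no match to any of these motifs, at 53.3% and 51.0% G or C. Entries for Clec3b, Fap and Thy1 were not analysed here.

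The other interstitial markers, Pi16 and Dpp4, did not pass, and both were lowest in WT 3. Pi16, a peptidase inhibitor that is widely used as a marker of adventitial and interstitial fibroblasts, measured 9.18, 8.88, 8.91 and 9.18 in KO 1 to 4. In WT 1 to 4 it measured 8.82, 9.23, 7.71 and 8.37. Its highest value was in WT 2 and its lowest in WT 3, so the genotypes overlapped. The Pi16 difference was 0.50 ± 0.33 (SE), with a limma adjusted p of 0.421 and an exact permutation p of 0.171, and its unadjusted 95% interval ran from -0.29 to 1.29. Numbers 1 and 2 gave 0.00 and numbers 3 and 4 gave 1.01, and without WT 3 the value was 0.23 (adjusted p = 0.634).

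Dpp4 encodes CD26, a membrane-bound serine protease that also cleaves hormones such as incretins. Its log2 signal was 7.78, 8.19, 8.20 and 8.42 in KO 1 to 4 and 8.54, 8.40, 7.34 and 8.03 in WT 1 to 4. Both the highest and the lowest array were WT. The difference was 0.07 ± 0.29 (SE; limma adjusted p = 0.919), with a 95% interval from -0.64 to 0.78. Numbers 1 and 2 gave -0.49 and numbers 3 and 4 gave 0.63, and the sign turned without WT 3 (-0.18). Tested as an interaction in limma, a choice made after seeing the data, the change of the genotype difference between the number pairs was 1.11 ± 0.41 for Dpp4 and 1.0 ± 0.42 for Pi16. Neither passed over all genes (adjusted p = 0.844 and 0.855), nor did the other members, and 0 of 18193 genes passed that test, with 1072 at an unadjusted p under 0.05.

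The committed markers pointed in opposite directions. F3, which encodes tissue factor, the receptor that starts blood coagulation, measured 9.02, 9.37, 9.22 and 8.97 in KO 1 to 4. In WT 1 to 4 it measured 8.71, 8.67, 8.80 and 8.94. The genotypes did not overlap, with KO 4 and WT 4 only just apart. The F3 difference was 0.36 ± 0.11 (SE, n = 4 against 4), or 1.29-fold, with an exact permutation p of 0.0286, but it missed the limma threshold over all genes (adjusted p = 0.116). Among varying genes only it passed without (0.0350) but not with the replicate block (0.0782). Numbers 1 and 2 gave 0.51 and numbers 3 and 4 gave 0.22, and without WT 3 the value was 0.37 (adjusted p = 0.199).

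Pdgfrb, a receptor for platelet-derived growth factor, was the member with a lower mean in KO. Its log2 signal was 9.82, 9.96, 9.49 and 9.54 in KO 1 to 4, and 9.82, 9.96, 9.83 and 10 in WT 1 to 4. KO and WT were level in numbers 1 and 2, and KO was below WT in numbers 3 and 4 (by -0.40). The difference was -0.20 ± 0.12 (SE; limma adjusted p = 0.375; exact permutation p = 0.143), with a 95% interval from -0.49 to 0.09. It was -0.22 without WT 3 (adjusted p = 0.434) and nearest to 0 without KO 3, at -0.13 (0.603). Pericytes carry Pdgfrb as well. The mean of the 9 varying genes of a list of 10 mural cell markers, all measured, was 8.94 to 9.28 in KO and 9.31 to 9.44 in WT, without overlap. Acta2, the actin gene of smooth muscle cells, fell by 1.26 (limma adjusted p = 0.0134, lost with the replicate block at 0.0975). When its probe sets were averaged it fell by 0.60 and passed (limma adjusted p = 0.00975). Without Acta2, left out after seeing the data, the mean of the other 8 genes was 8.70 to 9.05 in KO and 8.94 to 9.08 in WT and overlapped, with 4 genes higher and 4 lower in KO. Of these 8, Rgs5, Cspg4, Abcc9 and Notch3 differed by 0.12, 0.01, 0.04 and 0.04. Kcnj8, Mcam, Des and Myh11 differed by -0.11, -0.26, -0.33 and -0.36. None of the 8 passed over all genes. Among varying genes only Myh11 passed in limma with the replicate block (adjusted p = 0.0377), and none passed without it (Myh11 at 0.0524). The part of mural cells in the Pdgfrb difference was not tested.

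Interstitial and committed markers were then compared as sets, with no p because the members were chosen with results known. The mean of the 4 interstitial markers was 8.75, 8.78, 8.78 and 8.90 in KO 1 to 4 and 8.63, 8.70, 7.92 and 8.40 in WT 1 to 4. Every KO array lay above every WT array, but KO 1 and WT 2 were only just apart, and WT 3 stood lowest. The mean of F3 and Pdgfrb was 9.42, 9.67, 9.35 and 9.25 in KO 1 to 4 and 9.26, 9.32, 9.32 and 9.47 in WT 1 to 4, so the genotypes overlapped. The KO minus WT difference was 0.39 for the interstitial set and 0.08 for the committed set. Without WT 3 these were 0.23 and 0.07, and the committed value ran from 0.00 without KO 2 to 0.14 without KO 4. Taken within each array, the interstitial minus committed value averaged -0.62 ± 0.22 over the KO arrays and -0.93 ± 0.37 over the WT arrays (SD, n = 4). This difference of 0.31 was smaller than the spread of the WT arrays. The genotypes overlapped, and KO was above WT in 2 of 4 number pairs. Numbers 1 and 2 gave -0.15 and numbers 3 and 4 gave 0.77. It was 0.16 without WT 3, 0.59 without F3 and 0.03 without Pdgfrb, that is, with F3 (0.36) as the one committed marker.

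**Figure D2:**
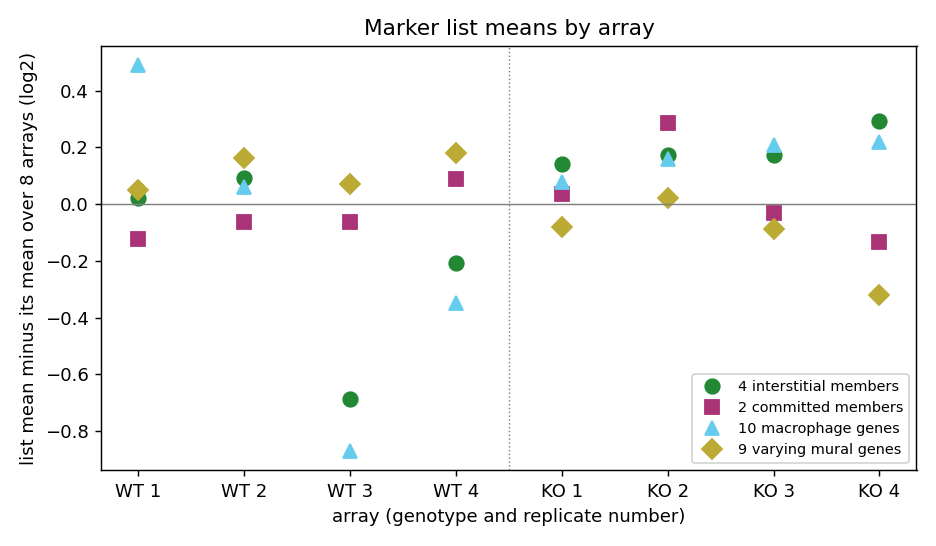
Mean log2 value of each marker list in each array, less the list's own mean over the 8 arrays; WT arrays are left of the dotted line and KO arrays right. The interstitial and the macrophage means are both lowest in WT 3 and next lowest in WT 4, while the committed mean stays within a narrower range.

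Macrophage markers moved with the interstitial set across the WT arrays. All 10 genes of a macrophage list were measured and varied, and their mean was 9.83 to 9.97 in KO and 10.24, 9.81, 8.88 and 9.40 in WT 1 to 4. Of these genes 0 passed the limma test and 0 had an unadjusted p under 0.05; over all genes the latter share was 22.9%. All 10 had a higher mean in KO, and the smallest p values were those of the scavenger receptor Cd163 (difference 0.56; adjusted p = 0.264) and of Adgre1, which encodes F4/80 (difference 0.52; adjusted p = 0.333). WT 3 and WT 4 were thus the lowest arrays for macrophage genes as for Pi16 and for the interstitial mean. Their part in these differences was not tested.

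Fap, Thy1 and Pdgfra, which mark stromal cells more broadly, did not pass. Fap encodes fibroblast activation protein, a membrane protease related to DPP4. It measured 8.84, 9.0, 9.06 and 8.96 in KO 1 to 4 and 8.75, 8.83, 8.34 and 8.74 in WT 1 to 4. The genotypes did not overlap, but KO 1 and WT 2 were nearly level. The Fap difference was 0.30 ± 0.12 (SE; limma adjusted p = 0.204; exact permutation p = 0.0286), and 0.19 without WT 3 (adjusted p = 0.177).

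Thy1 encodes CD90, a lipid-anchored surface protein of fibroblasts that is also found on T cells. Its log2 signal was 7.65, 7.39, 7.47 and 7.5 in KO 1 to 4 and 7.55, 7.15, 6.92 and 7.18 in WT 1 to 4. KO was higher in 4 of 4 number pairs, with WT 1 inside the KO range. The difference was 0.30 ± 0.14 (SE; limma adjusted p = 0.254; exact permutation p = 0.114), and 0.21 without WT 3. Of 8 measured T cell genes 5 hardly varied, including Cd3e, and the mean of the 3 that varied was 6.65 to 7.14 in KO and 6.07 to 7.01 in WT, with WT 1 the highest WT array there as for Thy1. The part of T cells in the Thy1 difference was not tested.

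Pdgfra, the receptor used to define fat progenitors as a class, measured 9.67, 10.06, 9.88 and 10.17 in KO 1 to 4 and 10.07, 10.05, 9.52 and 10.01 in WT 1 to 4. The genotypes covered nearly the same range. The difference was 0.03 ± 0.17 (SE; limma adjusted p = 0.932), with a 95% interval from -0.37 to 0.44, and it was -0.10 without WT 3.

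The members had 18 probe sets in all, of which 16 varied between arrays and 12 of those were higher in KO. Of the 18, 1 passed when all 45101 probe sets were tested, the Cd55 probe set 1460242_at (limma adjusted p = 0.0384); over all probe sets 1.02% were called higher and 1.98% in either direction. For the remaining Cd55 probe sets, 1443906_at and 1418762_at, KO exceeded WT by 0.22 and 0.15 with overlapping genotypes (limma adjusted p = 0.336 and 0.198). Averaging the 3 Cd55 probe sets gave 0.22, which did not pass over all genes (adjusted p = 0.0918). A further probe set, shared by Cd55 and its neighbour copy Cd55b, hardly varied (mean 6.08) and was not used. The 4 Dpp4 probe sets differed by 0.24 (1459973_x_at, whose suffix marks probes shared with other transcripts), 0.08, 0.07 and -0.11, and each was lower in KO for numbers 1 and 2 but higher for numbers 3 and 4. The second varying Pdgfra probe set had the opposite sign to the main one (1438946_at, -0.12). Both Pdgfrb probe sets were lower in KO, and the dimmer, 1417148_at, was lower in all 4 number pairs (-0.23; exact permutation p = 0.0571). The second Pi16 probe set, 1422026_at, and the third of Pdgfra, 1421916_at, hardly varied.

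**Figure D3:**
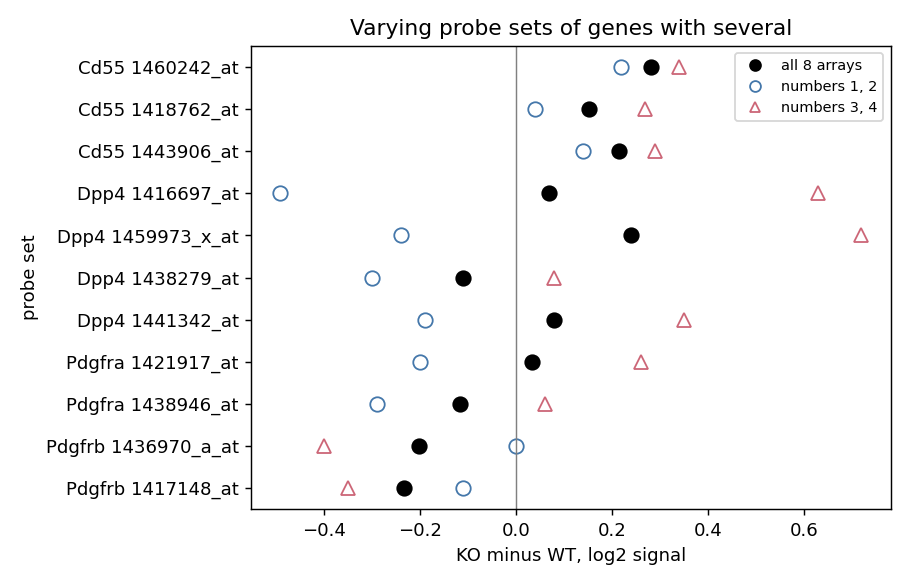
KO minus WT difference of log2 signal for each varying probe set of the members that have several, over all 8 arrays (filled circles), for numbers 1 and 2 (open circles) or numbers 3 and 4 (open triangles). The 3 Cd55 probe sets lie right of 0 and both Pdgfrb probe sets at or left of 0, while each Dpp4 probe set lies left of 0 in numbers 1 and 2 and right of it in numbers 3 and 4.

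Among themselves, 27 of the 36 pairs of members had a positive Pearson correlation over the 8 arrays, and all 8 pairs with Pdgfrb had a negative one. On deviations from the genotype means the Pdgfrb pairs had no common sign, from -0.21 with Cd55 to 0.43 with F3. Without WT 3 some positive pairs turned negative, such as Dpp4 with Clec3b (0.37 to -0.45) and Pdgfra with Thy1 (0.32 to -0.42). Others rose, such as Cd55 with Fap (0.70 to 0.80). After adjustment over the 36 pairs 0 passed. The highest was Dpp4 with Pdgfra (r = 0.92, exact permutation p = 0.00253, adjusted p = 0.0911). Its Spearman's rho was 0.86 (exact permutation p = 0.0107, adjusted p = 0.185). Its r was 0.92 on deviations from the genotype means, 0.82 without WT 3 and 0.51 without the 2 arrays farthest from the Dpp4 median. Leaving out the most extreme arrays narrows the range, so that fall alone cannot show that r rested on them. Clec3b with Fap had r = 0.88 (exact permutation p = 0.00518, adjusted p = 0.0933; rho = 0.76, p = 0.0368, adjusted p = 0.33), 0.80 without the 2 farthest arrays and 0.79 on deviations from the genotype means. Clec3b with Cd55 had r = 0.80 (exact permutation p = 0.0219, adjusted p = 0.154; rho = 0.62, p = 0.115, adjusted p = 0.495) but -0.28 on deviations from the genotype means, so within a genotype these 2 genes did not rise together. Among 4243 genes with an SD of at least 0.1, those most like the interstitial mean by Pearson correlation over the 8 arrays were Clec4n (0.969), Pstpip1 (0.963), Cmah (0.962), Gpc6 (0.957) and Ctsc (0.955). Those most like the mean of F3 and Pdgfrb were Cep170 (0.882), Nol3 (0.872), Tcf15 (0.812), Dmrt2 (0.791) and Map9 (0.788). None of these 10 genes passed the test of genotype. They are the highest of 4243 candidates over only 8 arrays. No p was computed for them, so how high the top correlations would be by chance was not tested.

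Further genes of the same cell populations, listed from general knowledge, were mixed in direction within each list. Of 20 other interstitial genes 19 were measured and 14 varied, 10 with a higher and 4 with a lower mean in KO. The median difference was 0.03 over the 19 and 0.16 over the 14, against 0.01 over all varying genes. The mean of the 14 differed by 0.10 and overlapped between genotypes, with -0.14 in numbers 1 and 2 and 0.34 in numbers 3 and 4. Dact2, a regulator of Wnt and TGF-beta signalling, rose and Limch1, an actomyosin-associated protein, fell. Dact2 measured 7.43, 7.25, 7.49 and 7.33 in KO 1 to 4 and 7.03, 7.0, 6.70 and 6.96 in WT 1 to 4, without overlap. The Dact2 difference was 0.45 ± 0.09 (SE; limma adjusted p = 0.0499), at the edge of the threshold, and did not pass without any one of the 8 arrays (adjusted p from 0.0690 without WT 3 to 0.130 without KO 3) or with the replicate block (0.180). Limch1 measured 8.53, 8.43, 8.22 and 8.39 in KO 1 to 4 and 8.96, 9.17, 9.05 and 8.92 in WT 1 to 4, also without overlap. The Limch1 difference was -0.63 ± 0.08 (SE; limma adjusted p = 0.0235); it passed without KO 1 (0.0468) or WT 4 (0.0478), and was lost without any one of the other 6 arrays (up to 0.0634, without WT 3) and with the replicate block (0.114). Averaged over all probe sets of each gene the differences were smaller, 0.15 for Dact2 and -0.31 for Limch1, and both still passed (limma adjusted p = 0.0485 and 0.0246). The annexin Anxa3 was lower in KO without overlap (-0.43) but did not pass (adjusted p = 0.0855), and Bmp7 hardly varied.

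Of 20 other genes of committed and F3-marked cells, all were measured and 16 varied, 6 with a higher and 10 with a lower mean in KO. The median difference was -0.03 over the 20 and -0.08 over the 16. The mean of the 16 differed by -0.12 and was lower in KO in all 4 number pairs, though the genotypes overlapped. Of the 20 genes 0 passed by limma and 8 had an unadjusted p under 0.05, 6 of them lower in KO. Over all genes, 22.9% had an unadjusted p under 0.05 and 10.1% had one with a lower mean in KO, and among varying genes these shares were 43.5% and 20.6%. The smallest p values belonged to carboxypeptidase E, Cpe (-0.62; adjusted p = 0.0584), the growth factor binding protein Igfbp3 (-1.26; 0.0713), the basement membrane collagen Col4a1 (-0.40; 0.0713) and Col15a1 (0.48; 0.0878). Igfbp3 measured 8.01, 8.99, 8.36 and 8.96 in KO 1 to 4 and 9.83, 10.31, 9.37 and 9.85 in WT 1 to 4. All KO arrays lay below all WT arrays, with a wide spread in both genotypes. Among varying genes Cpe, Igfbp3 and Col4a1 passed in limma without the replicate block (adjusted p = 0.0139, 0.0161 and 0.0196). They also passed with it (0.0248, 0.0242 and 0.0299). Aoc3, higher in KO without overlap (0.33), passed there both ways too (0.0276 and 0.0336), but not over all genes (0.09). Col15a1 passed among varying genes only without the block (0.0236 against 0.0732). Igfbp3, Col4a1 and Cpe are not particular to progenitors, and endothelial genes had lower means in KO too. The mean of 9 varying genes of 10 measured endothelial markers was 9.06 to 9.27 in KO and 9.25 to 9.52 in WT. Esam was called lower (-0.33, limma adjusted p = 0.0381). That call was lost with the replicate block (0.155) and the block of number pairs (0.0626). Of the arrays left out in turn, it held only without WT 1 (0.0454). Among varying genes Esam passed without and with the replicate block (0.0124 and 0.0371). The part of endothelial cells in these differences was not tested.

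Of 15 general stromal genes, all measured and varying, 0 passed by limma over all genes. An unadjusted p under 0.05 was found for 3 (43.5% of all varying genes had one), and the median difference was 0.00. The integrin subunit Itgb1 (-0.38, adjusted p = 0.0696), endoglin, Eng (-0.41, 0.124), the ecto-nucleotidase Nt5e (-0.35, 0.152) and Cd24a (-0.29, 0.236) were each lower in KO in all 4 number pairs. Among varying genes only, Itgb1 and Eng passed in limma (adjusted p = 0.0195 and 0.0372), where 27.1% of genes did. With the replicate block Itgb1 and Nt5e passed (0.036 and 0.0466), where 19.5% did. With its probe sets averaged, Itgb1 fell by less (-0.13) and passed over all genes (limma adjusted p = 0.0299). Neither the collagen gene Col1a1 nor Cd34 passed, with differences of 0.07 and 0.01. Of 8 measured adipocyte markers 6 varied, 4 with a higher and 2 with a lower mean in KO, and their mean differed by 0.04. Adipoq and Retn were called higher (0.25 and 0.26; limma adjusted p = 0.0486 and 0.0465), and both calls were lost with the replicate block (0.175 and 0.107). The Adipoq value fell to 0.14 after quantile normalisation (adjusted p = 0.244). Lep was lower in all 4 number pairs (-0.38) and did not pass (adjusted p = 0.244), and Lipe and Pnpla2 differed by -0.05 and 0.00. All 8 mesothelial genes hardly varied and 0 of 10 skeletal muscle genes passed. Of 5 measured Schwann cell genes 0 passed by limma over all genes (Mbp at -1.56, adjusted p = 0.1). An unadjusted p under 0.05 was found for 4, all lower in KO, of which Mag hardly varied. The share with an unadjusted p under 0.05 and a lower mean in KO was 10.1% over all genes and 20.6% among varying genes. Among varying genes only, Mbp and Pmp22 (-0.54) passed in limma without (adjusted p = 0.0245 and 0.0379) and with the replicate block (0.0272 and 0.0225). S100b (-0.35) passed neither way (0.0556 and 0.0636).

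**Figure D4:**
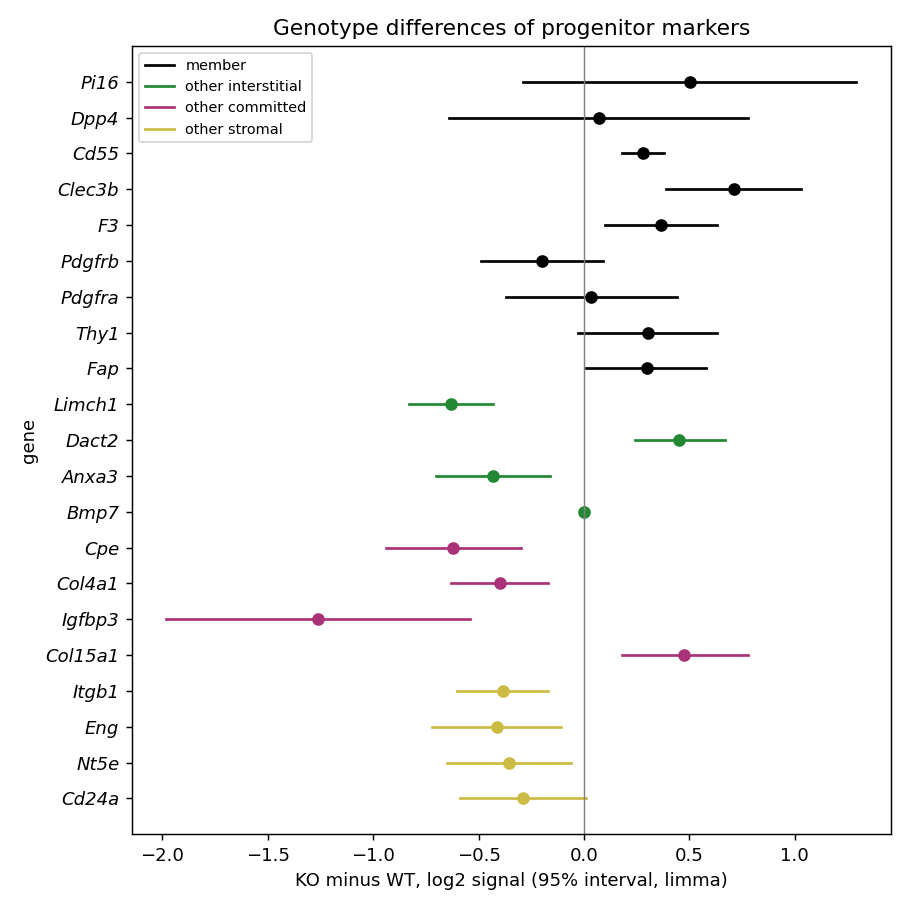
KO minus WT difference of log2 signal with its unadjusted 95% interval from limma for the 9 measured members (black) and, in each list of other interstitial, committed and general stromal genes, the 4 genes with the smallest p. Among the members the intervals of Clec3b at 0.71, Cd55 at 0.28, F3 at 0.36 and, narrowly, Fap at 0.30 lie above 0. Those of Dact2 at 0.45 and Col15a1 do so too. The intervals of Limch1, Anxa3, Cpe, Igfbp3, Col4a1, Itgb1, Eng and Nt5e lie below 0, and Bmp7 hardly varied. Intervals do not show the adjustment over all genes.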

How the data were processed

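RNA of 8 mouse fat samples was amplified from 100 ng of total RNA, labelled with biotin and hybridised to 3' expression arrays, per the labels' protocols. The authors deposited 1 table of log2 signals with 45101 probe sets; the log2 scale was read from its range, 4.93 to 14.3. The submitters' processing notes name R 2.14.0; how background, normalisation and summarisation were handled is not given in the sources used here. Of all genes, 71.6% had an SD under 0.01 over the arrays, which is not explained here. The platform annotation paired 34945 probe sets with 1 gene symbol, 932 with several and 9160 with none, beside 64 controls; 34741 of the 34945 matched the GRCm38.p6 gene table by identifier. No build is named for the arrays.

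KO was compared with WT on the log2 values with limma 3.58.1 in R 4.3.3 (lmFit, eBayes, two-sided, Benjamini-Hochberg over all genes), tested on simulated data. Exact permutation tests were two-sided. No signal over background was given, and the number of arrays limits precision. Replicate numbers 1 to 4 occur in both genotypes without stated meaning. Deviations of same-numbered arrays correlated at 0.315, 0.486, 0.189 and 0.244 over genes. On the data alone, equal numbers were therefore used as a block in alternative fits and as pairs in counts, but not in the main fit. Some arrays with different numbers correlated as highly (KO 3 with WT 4 at 0.364, KO 4 with WT 3 at 0.266), so the correlations also follow a split of numbers 1 and 2 against 3 and 4. The fit without the block is the main one. Alternatives were each array left out, blocks by number and by number pair, varying genes only, no dim genes, averaged probe sets, quantile normalisation and a trended robust variance. Members and lists were chosen with earlier results of these data known. The genes named are Lpar4, the members, up to 4 genes of each further progenitor list and up to 2 of each other cell type list with the smallest p, all list genes past the threshold, and the 5 genes most like each set mean. Col1a1, Cd34, Lep, Lipe, Pnpla2, Rgs5, Cspg4, Abcc9, Notch3, Kcnj8, Mcam, Des, Aoc3, Pmp22 and S100b were chosen after their values were seen.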

Additional observations from a re-analysis of the deposited data

Results flagged for a closer look

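In 82 groups of 4 arrays checked, 5 held 1 array well apart from its 3 companions, a share near the 1 in 20 that chance gives. Pdgfra was low in WT 3 (9.52), the array lowest for 6 of the 9 members. Cpe was high in KO 2 (8.93), as was Nt5e (7.52). Cd24a was low in KO 3 (8.08). The macrophage gene Adgre1 was high in KO 4 (9.14).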

How the results depend on the processing

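With the replicate number as a replicate block 0 members and 0 genes passed in limma, against 2 members and 733 genes without it. Leaving out each array in turn left 0 to 1 members and 10 to 253 genes, the lowest count without KO 3. A block of the number pairs left 1 member, Cd55, and averaged probe sets left 1, Clec3b. Among varying genes only, 1402 genes passed, and 1011 with the replicate block. The Clec3b and Cd55 differences kept their sign under all 16 alternatives, at 0.59 to 0.80 and 0.22 to 0.31, and each passed in 7. Dpp4 kept its sign in 14 of 16 (lowest -0.18, without WT 3) and Pdgfra in 12 of 16 (lowest -0.10, without WT 3), and the other 5 members in all 16. The blocks, the choice of genes tested and the trended robust variance change only the p. The sign could therefore change only with an array left out, averaged probe sets or quantile normalisation. The interstitial minus committed difference ran from 0.16 to 0.41 over the arrays left out and fell to 0.03 without Pdgfrb. It was 0.31 with the replicate block, which cannot change it. Signal over background is unknown, so small differences of dim probe sets are least certain.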
